A study of Homo sapiens with 17 samples.

Results

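The transition described here is the move between the first and the next pair of times after doxycycline was added to IMR32 cells, a human neuroblastoma line with amplified MYCN. The cells carried a doxycycline-inducible construct for NOTCH3IC, the intracellular domain and active form of the receptor NOTCH3. The arrays of times 12 and 24 of clones c6 and c8 (4 arrays) were set against those of times 4 and 8 of the same clones (4 arrays), so that 8 of the 17 arrays of the time course entered, chosen by their labels. The rest were time 0, before induction, and times 48, 72 and 96 of both clones and time 120 of c6. Times are printed as labelled, since no unit comes with them.

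All 8 arrays came from cells in serum-containing medium with doxycycline, and by the labels the groups differ in the time since it was added. The course holds no culture kept without doxycycline past time 0 and none with doxycycline but no construct, so NOTCH3IC, doxycycline and time in culture cannot be told apart. Each clone is 1 line grown from the parental cells, with 1 array per time, and nothing in the labels shows that times came from separate cultures. The p-values therefore cover only the spread among these arrays, neighbouring times included. Signals are probe set intensities from which the submitters had already removed differences in overall brightness. The 8 array medians lay between 15.4 and 19.3, and their number limits the precision. Of 11 sympathetic neuroblast markers with a probe set, 6 (PHOX2A, GATA3, ISL1, CHGA, MYCN and ELAVL4) had a signal of at least 100 on all 8 arrays, while TH, the first enzyme of catecholamine synthesis, was below 16 on all 8.

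As background, a Notch receptor is cut when it binds a ligand such as JAG1 on a neighbouring cell. Its intracellular domain then enters the nucleus, joins the DNA-binding protein RBPJ and a Mastermind coactivator, and turns on genes of the HES and HEY families, which encode repressors. In blood vessel walls NOTCH3 is known for its part in smooth muscle cells and pericytes. Neuroblastoma cells come from the sympathetic lineage and can take an adrenergic state, marked by genes such as DBH and PHOX2A, or a mesenchymal state, marked by matrix and migration genes.

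The transition was mainly a rise. Of 13675 genes tested, 359 (2.63%) were higher at times 12 and 24 and 134 (0.980%) were lower, 493 (3.61%) in all, in a limma fit with the clone as a block, a Benjamini-Hochberg adjusted p under 0.05 and 5 residual degrees of freedom. The rises were also the larger changes: 164 genes (1.20%) rose at least 2-fold and 21 of them at least 4-fold, whereas 6 (0.0439%) fell at least 2-fold. Changes are given on the log2(signal + 16) scale, which understates those of dim genes. The median change over all genes was 0.03. When each array was centred on its median in place of the deposited scaling, 267 genes were higher and 252 lower of 519, so the share of rises fell from 72.8% to 51.4% and the surplus of rises depends on the scaling.

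The arrays of the pairs of times were also compared directly. In 349 of the 359 genes that rose, both arrays of times 12 and 24 lay above both of times 4 and 8 within each clone, and in 267 all 4 later arrays lay above all 4 earlier ones. Over all genes tested, these patterns occurred upward in 10.1% and 5.10% and downward in 7.17% and 3.10%. Of the 134 genes that fell, 133 separated within each clone and 95 over all 8 arrays. The count of changed genes depended on single arrays. It was 137 without time 4 of c8, 195 without time 12 of c8, 231 without time 24 of c6, 250 without time 8 of c8, 260 without time 4 of c6, 296 without time 8 of c6 and 1356 without time 12 of c6, and within 1.5 times of 493 only without time 24 of c8. Clone c8 alone gave 632 genes, and clone c6 alone gave 0 with limma, with 1237 genes at an unadjusted p under 0.05.

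COL3A1, the main chain of type III collagen, had the largest rise. Its signal was 13 and 39.4 at times 4 and 8 and 69.9 and 964 at times 12 and 24 in clone c6, and 32.1 and 43.4, then 658 and 2473, in clone c8. Clone c8 had thus climbed by time 12 and clone c6 only by time 24, and the 4 later arrays all lay above the 4 earlier ones. The log2 change was 3.73 ± 0.66 (SE, adjusted p = 0.0111), or 13.2-fold, and 4 further probe sets of COL3A1 gave 3.68, 2.94, 1.36 and, for the dimmest, -0.15. With the mean of all its probe sets COL3A1 was not called. The second largest rise was that of LOC101927040, a locus without a named gene, with 5.7 and 13.6 at times 4 and 8 and 139.9 and 433 at times 12 and 24 in clone c6, and 20.9 and 58.5, then 465 and 563, in clone c8, a log2 change of 3.36 ± 0.30 (SE, adjusted p = 0.000574). MYC, which encodes a growth-promoting transcription factor related to MYCN, was the third. Its signal was 4.9 and 25.5 at times 4 and 8 and 109 and 397 at times 12 and 24 in clone c6, and 2.5 and 35.1, then 300.0 and 340.2, in clone c8, so all 4 later arrays stood far above the earlier ones, with a log2 change of 3.20 ± 0.39 (SE, adjusted p = 0.00271). The signal of MYCN itself, the gene amplified in this line, stayed between 4075 and 4633, a log2 change of 0.01 ± 0.07 (SE, adjusted p = 0.959).

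The other 12 of the 15 largest rises came from varied families. JAG1, the Notch ligand, is described with the Notch genes. Among surface and secreted proteins were CHODL (chondrolectin, 2.79), TMEM45A (2.70), PLXDC1 (2.69), TMEM100, a membrane protein known to respond to BMP signals (2.46), the insulin-like growth factor binding protein IGFBP3 (2.34), the guidance protein SEMA5B (2.32), the collagen VI chain COL6A3 (2.30) and S1PR3, a receptor for sphingosine-1-phosphate (2.25). The list closed with CA10, a carbonic anhydrase-related protein (2.51), the adaptor SH2D3C (2.19) and CARMN (2.18), a long non-coding RNA known from smooth muscle. CARMN signals were 0.7 and 18.6 at times 4 and 8 and 46 and 146 at times 12 and 24 in clone c6, and 9.9 and 43, then 147 and 212, in clone c8. Of these times, they stood highest at time 24 in both clones. CHODL signals were 10.4 and 26.6 at times 4 and 8 and 70.2 and 339 at times 12 and 24 in clone c6, and 9.2 and 22.9, then 221 and 331, in clone c8, with all 4 later arrays above the earlier ones. TMEM100 had 23.2 and 63.8 at times 4 and 8 and 101 and 553 at times 12 and 24 in clone c6, and 57.3 and 91.6, then 516 and 622, in clone c8, so that c6 reached its later level only at time 24. Of the 15 genes, 13 were called in all 8 fits that left out 1 array. COL3A1 (adjusted p = 0.0592) and SEMA5B (adjusted p = 0.0516) were not called without time 4 of c8.

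**Figure D1:**
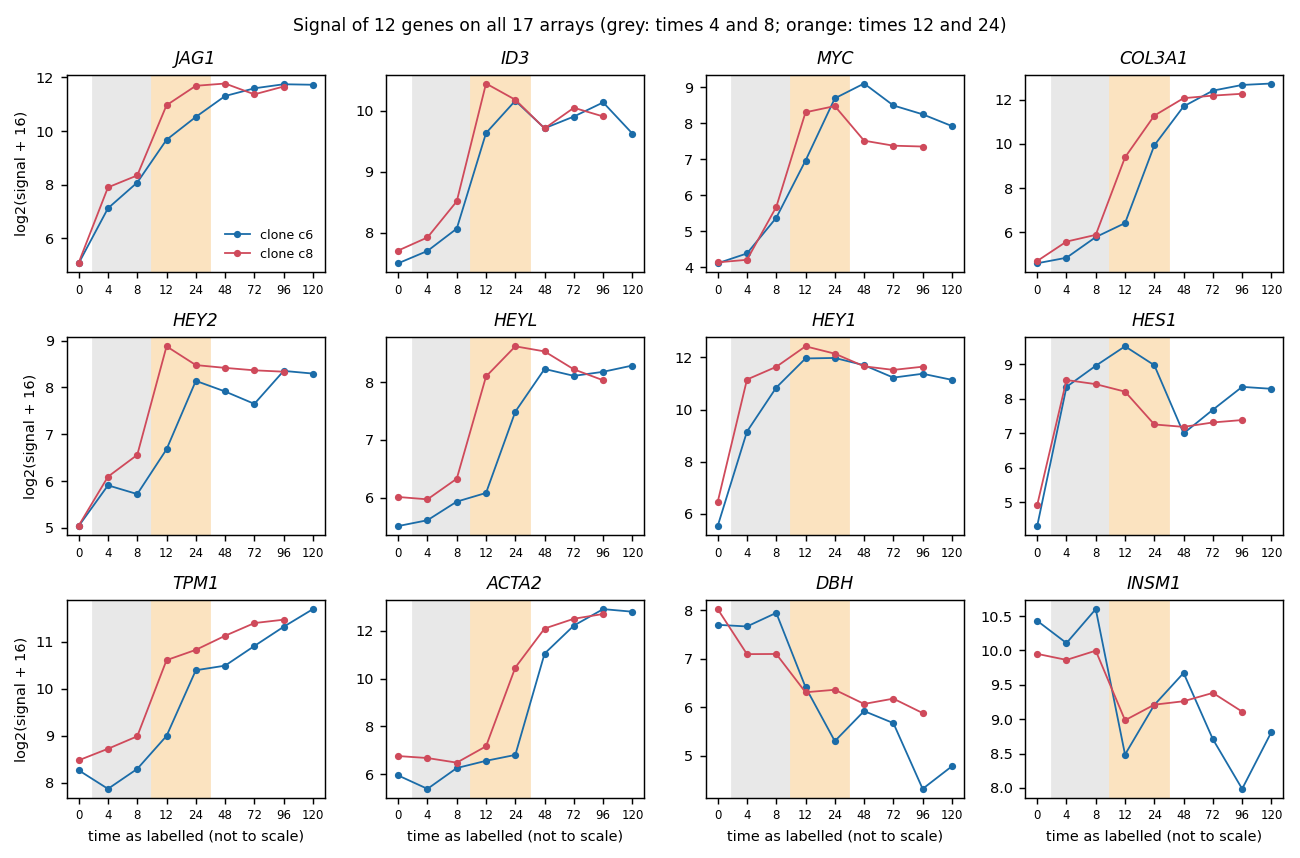
Signals of 12 genes as log2(signal + 16) (vertical axis) against the labelled times (horizontal axis, not to scale), 1 point per array, clone c6 in blue and clone c8 in red; times 4 and 8 are shaded grey and times 12 and 24 orange. JAG1, ID3, MYC, COL3A1, HEY2, HEYL, HEY1 and TPM1 stood higher in the orange band in both clones, DBH and INSM1 lower, while HES1 was already high before it. ACTA2 climbed mostly after the band in c6 and already at time 24 in c8.

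The falls were smaller. NPTX1, neuronal pentraxin, fell most, with 895 and 876 at times 4 and 8 and 489 and 180.3 at times 12 and 24 in clone c6, and 274 and 204, then 75.9 and 108, in clone c8. The fall held within each clone, but the clones started from different levels and the 4 and 4 arrays overlapped. The log2 change was -1.38 ± 0.24 (SE, adjusted p = 0.00955). DBH, the enzyme that makes noradrenaline from dopamine, had signals of 187 and 231 at times 4 and 8 and 69.3 and 23.4 at times 12 and 24 in clone c6, and 121 and 121, then 63.3 and 66.2, in clone c8, with a log2 change of -1.36 ± 0.27 (SE, adjusted p = 0.0172). All 4 later arrays lay below all 4 earlier ones, while a dim second probe set changed by -0.03. DBH lost its call with the mean of both probe sets. INSM1, a transcription factor of neuroendocrine cells, had 1087 and 1538 at times 4 and 8 and 342 and 575 at times 12 and 24 in clone c6, and 915 and 1006, then 491 and 577, in clone c8, with a log2 change of -1.17 ± 0.19 (SE, adjusted p = 0.00651). The groups did not overlap there either, although a dimmer probe set changed by 0.18. The other 12 of the 15 largest falls, with log2 changes of -1.12 to -0.88, were ZNF488, the immediate early gene EGR1, NWD2, the condensin subunit NCAPH, the kinesin KIF22, TESC, the DNA repair gene RAD54L, HES6, NLRP13, UBE2S, PELI2 and the kinetochore gene SPC24. Only HES6, INSM1, NWD2, PELI2, TESC and ZNF488 of the 15 were called in all 8 fits that left out 1 array. ZNF488 was dim, at 18.3 to 36.4 on the earlier arrays and 1.6 to 5 on the later ones. NLRP13 was at 29 to 64.9 and then at 4.3 to 32.4. NPTX1, EGR1 and NLRP13 lost their calls without time 4 of c8, and NCAPH and SPC24 stayed called only in the fits without time 24 of c8 or time 12 or 24 of c6. DBH lost its call without time 4 or 8 of c6, and UBE2S lost its call without time 4 or 8 of c8 or time 8 of c6. RAD54L stayed called only in the fits without time 8 or 24 of c8 or time 12 of c6. KIF22 stayed called only without time 12 of c6, with an adjusted p of at most 0.133 where calls were lost (RAD54L).

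The clones reached the later level at different times. Over the 359 genes that rose, the median log2 step from time 8 to time 12 was 0.53 in c6 and 0.92 in c8, and the step from time 12 to time 24 was 0.54 in c6 and 0.03 in c8. The step from time 4 to time 8 was 0.21 and 0.19. Over the whole transition the medians were 0.88 in c6 and 0.995 in c8, and the change was larger in c8 for 229 of the 359. For the 134 genes that fell, the step from time 8 to 12 was -0.55 in c6 and -0.57 in c8, and that from 12 to 24 was -0.30 and 0.18. These medians describe genes chosen by the same arrays and carry no test.

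**Figure D2:**
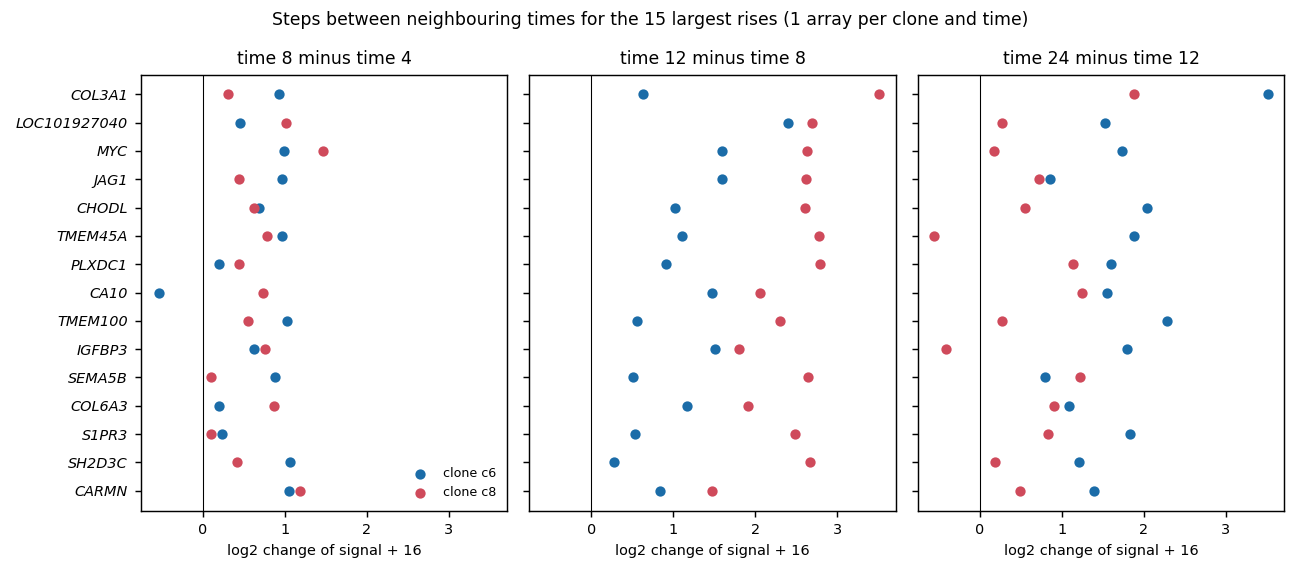
Log2 change of signal + 16 (horizontal axis) between neighbouring times for the 15 largest rises (vertical axis), 1 point per clone, c6 in blue and c8 in red, in panels for time 8 minus 4, 12 minus 8 and 24 minus 12. In the middle panel c8 lies to the right of c6 for all 15 genes, and in the right panel c6 lies to the right for all but SEMA5B.

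A test of the clone difference over the same 8 arrays (the interaction of clone and phase in limma) called 0 genes (0.00%), with 495 genes (3.62%) at an unadjusted p under 0.05 and a smallest adjusted p of 0.519. The 3 genes of smallest p were TXNIP, FAM43A and TMEM204. TMEM204, which encodes a membrane protein, had signals of 12.9 and 16.5 at times 4 and 8 and 2.6 and 30.6 at times 12 and 24 in clone c6, and 5.0 and 0.9, then 110.4 and 131, in clone c8, so the later arrays of c8 stood far above all others. Its clone difference was 2.91 ± 0.51 (SE) on the log2 scale. Dimmer probe sets of TMEM204 stayed at or below 27.6 and 18.7, with transition changes of -0.12 and 0.05. TXNIP, a thioredoxin-binding protein, had 203 and 249 at times 4 and 8 and 121 and 132 at times 12 and 24 in clone c6, and 109 and 129, then 230.2 and 216, in clone c8, lower late in c6 and higher late in c8 (difference 1.58 ± 0.24, SE). FAM43A differed by 2.34 ± 0.41 (SE). Without time 24 of c6, 1 gene was called, TMEM204 (3.57, adjusted p = 0.0128).

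Genes of the Notch pathway formed the group that the construct addresses most directly. Of 18 measured Notch target genes, 10 rose and 2 fell, with a median log2 change of 0.69 against 0.03 over all genes. Among all genes 2.63% rose and 0.980% fell. The HES and HEY repressors HES4, HES5, HEY1, HEY2 and HEYL rose, and so did the feedback inhibitor NRARP, the receptors NOTCH1 and NOTCH3, ID3 and SOX9. The NOTCH3 signal may include that of the construct. HES6, a HES relative known from neuronal differentiation, and the CDK inhibitor CDKN1A fell. The list was written with results of these data known, so its count is no independent evidence of its direction. The number of its members that rose was 5 without time 4 of c8.

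Windows of 300 bases around the transcription start, 250 before and 50 after, were taken from RefSeq (build GRCh38.p14) for 11053 of the 13675 genes tested, among them 14 of the 18 Notch targets. They were searched on both strands for TGGGAA, the core of the motif that RBPJ binds, which a longer form, CGTGGGAA, contains. TGGGAA was present in 5 of the 14 windows (35.7%), those of HES1, HES4, HES5, HEY2 and HEYL, and in 21.9% of all windows. Among the genes that rose and had a window, 23.8% held it, and among those that fell 22.4%. CGTGGGAA was present in the windows of HEY2 and HEYL and in 1% of all windows. A match is a run of letters and not a measured binding site. The windows of HES4, HEY2 and HEYL are shown because these are the HES and HEY genes that rose and hold the core motif with the smallest p. They hold the 250 bases before the start and the first 30 of the transcript, 5′ to 3′, with each match to TGGGAA or its reverse complement in capitals.
HES4, chr1:1000068-1000347, minus strand: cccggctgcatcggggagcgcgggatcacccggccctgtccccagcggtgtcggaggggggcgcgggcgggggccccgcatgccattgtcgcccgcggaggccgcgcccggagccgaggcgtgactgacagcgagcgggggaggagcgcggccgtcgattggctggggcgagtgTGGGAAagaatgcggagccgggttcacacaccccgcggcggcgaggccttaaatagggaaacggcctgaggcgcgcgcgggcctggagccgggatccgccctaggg
HEY2, chr6:125749382-125749661, plus strand: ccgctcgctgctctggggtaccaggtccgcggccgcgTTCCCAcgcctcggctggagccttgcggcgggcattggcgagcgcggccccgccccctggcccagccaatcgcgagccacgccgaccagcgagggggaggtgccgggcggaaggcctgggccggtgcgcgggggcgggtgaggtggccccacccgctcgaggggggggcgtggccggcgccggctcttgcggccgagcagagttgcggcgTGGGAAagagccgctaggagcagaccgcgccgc
HEYL, chr1:39639614-39639893, minus strand: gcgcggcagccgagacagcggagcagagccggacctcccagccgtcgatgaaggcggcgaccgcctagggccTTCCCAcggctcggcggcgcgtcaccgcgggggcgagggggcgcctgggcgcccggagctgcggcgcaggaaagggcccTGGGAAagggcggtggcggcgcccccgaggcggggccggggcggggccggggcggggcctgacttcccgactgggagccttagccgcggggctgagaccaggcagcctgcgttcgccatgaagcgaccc

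All 3 genes were higher late in each clone. HEY2 signals were 44.1 and 36.8 at times 4 and 8 and 86.4 and 266 at times 12 and 24 in clone c6, and 52.3 and 78.3, then 454 and 340.1, in clone c8, and all 4 later arrays lay above the earlier ones (log2 change 1.97 ± 0.28, SE, adjusted p = 0.00394). HEYL signals were 32.8 and 45 at times 4 and 8 and 51.7 and 164 at times 12 and 24 in clone c6, and 46.7 and 64.3, then 258 and 377, in clone c8. At time 12 only c8 had moved away from the earlier level (log2 change 1.61 ± 0.31, SE, adjusted p = 0.0157). HES4 signals were 29.6 and 42.6 at times 4 and 8 and 78.6 and 116 at times 12 and 24 in clone c6, and 36.9 and 38.3, then 154 and 152, in clone c8, with no overlap (log2 change 1.38 ± 0.16, SE, adjusted p = 0.00271). HES5 was dim throughout, with 9.8 and 8.6 at times 4 and 8 and 42.1 and 37.3 at times 12 and 24 in clone c6, and 4.6 and 13.2, then 36.9 and 16.6, in clone c8, and its lowest later array was time 24 of c8 (log2 change 0.95 ± 0.20, SE, adjusted p = 0.0229). NRARP, which limits Notch signalling from within the cell, stood at 126 to 133 on the 4 earlier arrays and at 186 to 243 on the later ones (log2 change 0.70 ± 0.11, SE, adjusted p = 0.00629). HEYL lost its call without time 4, 8 or 12 of c8 or time 24 of c6. HES5 stayed called only in the fits without time 8 or 24 of c8 or time 12 of c6. The adjusted p was at most 0.0983 where these calls were lost (HES5).

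Other Notch targets had moved before the transition. HES1, which encodes the best known HES repressor, went from 3.9 at time 0 to 308 and 479 at times 4 and 8 in c6 and from 14.3 to 356 and 326 in c8. At times 12 and 24 it was 715 and 484 in c6 and 278 and 137 in c8, a transition change of -0.08 ± 0.28 (SE, adjusted p = 0.917). HEY1 did both. It stood at 30 and 71.4 at time 0 and had 553 and 1820.5 at times 4 and 8 and 3971 and 4024 at times 12 and 24 in clone c6, and 2259 and 3174, then 5491 and 4512, in clone c8, so that all 4 later arrays again exceeded the earlier ones (log2 change 1.43 ± 0.31, SE, adjusted p = 0.0292). The chemokine receptor CXCR4 was at 91 and 223 at time 0 and had 864 and 1898 at times 4 and 8 and 2638 and 2489 at times 12 and 24 in clone c6, and 2421 and 2718, then 2976 and 2049.5, in clone c8. Its change of 0.47 ± 0.25 (SE, adjusted p = 0.328) did not pass. HEY1 lost its call without time 4 or 12 of c8 or time 24 of c6 (adjusted p = 0.0978).

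Of 37 measured receptors, ligands and modulators of the pathway, 5 rose and 0 fell, with a median log2 change of 0.08, against 2.63% and 0.980% of all genes. JAG1 led them. Its signal was 123 and 254 at times 4 and 8 and 800.3 and 1459 at times 12 and 24 in clone c6, and 222 and 308, then 1980.5 and 3285, in clone c8, which separated the groups completely, with a log2 change of 2.85 ± 0.26 (SE, adjusted p = 0.000574), or 7.23-fold. The coactivator MAML2 rose by 1.18 and MAML3 by 0.75, and the receptor NOTCH1 by 0.68. NOTCH3 signals were 75.2 and 161 at times 4 and 8 and 205 and 446 at times 12 and 24 in clone c6, and 275 and 440.0, then 780.3 and 1028, in clone c8, higher late in each clone, although the later arrays of c6 overlapped the earlier ones of c8 (log2 change 1.33 ± 0.25, SE, adjusted p = 0.0155). A second, dim NOTCH3 probe set stayed at or below 15.6. Whether either probe set lies in the part of NOTCH3 that the construct holds could not be read from the sources used here. The signal does not tell the construct from the cells' own gene. NOTCH1 lost its call without time 4 of c8, and NOTCH3 lost its call without time 4 of c8 or time 4 of c6, with an adjusted p of at most 0.0736 in these fits (NOTCH3). The number of members that rose was 3 without time 4 of c6 and 2 without time 4 of c8.

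The ID genes encode proteins that hold back basic helix-loop-helix transcription factors and are known targets of BMP signals. ID3 had the smallest p-value of all genes tested. Its signals were 193 and 253 at times 4 and 8 and 778 and 1129.8 at times 12 and 24 in clone c6, and 227 and 350.1, then 1376 and 1142, in clone c8; every later array exceeded every earlier one. The log2 change was 2.05 ± 0.16 (SE, adjusted p = 0.000281). ID4 rose by 1.17 ± 0.20 (SE, adjusted p = 0.00955), with 116 and 126 at times 4 and 8 and 286 and 201 at times 12 and 24 in clone c6, and 118 and 117, then 243 and 492, in clone c8. Its dimmer probe sets gave changes of 1.17, 0.17, 0.36 and -0.32. ID2, with a change of 0.44 ± 0.11 (SE, adjusted p = 0.0526), did not pass, although its 4 later arrays (1641 to 2393) all lay above the earlier ones (1329 to 1528). ID1 had 5580.1 and 5179 at times 4 and 8 and 6823 and 4468 at times 12 and 24 in clone c6, and 4581 and 4699.9, then 5272 and 3343, in clone c8 and a change of -0.05 ± 0.15 (SE, adjusted p = 0.888). The members of 1 small family thus had changes from -0.05 to 2.05 in the transition. ID1 had moved before it, from 1813.5 at time 0 to 5580.1 at time 4 in c6 and from 1621 to 4581 in c8. Across 26 measured TGF-beta and BMP response genes, 6 rose and 0 fell (median 0.21), against 2.63% and 0.980% of all genes. They were BAMBI (0.96), ID4, the protease HTRA1 (1.86), the receptor TGFBR2 (1.91), ID3 and TMEM100. ID4 lost its call without time 4 of c8 (adjusted p = 0.0524).

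Of 30 immediate early genes, which answer growth factors quickly, 6 rose and 1 fell (median 0.13), against 2.63% and 0.980% of all genes. Besides MYC these were the growth factor feedback inhibitors SPRY2 (1.34), SPRY4 (0.95) and SPRED2 (0.68), with DUSP5 (0.66) and IER2 (0.66). SPRY2 signals were 21.2 and 31.9 at times 4 and 8 and 132 and 75.2 at times 12 and 24 in clone c6, and 61.1 and 59.6, then 155 and 170.4, in clone c8, higher on all later arrays. EGR1, often the first of such genes to respond, fell by 1.09 ± 0.20 (SE, adjusted p = 0.0124), with 52.9 and 63.1 at times 4 and 8 and 33.1 and 11.4 at times 12 and 24 in clone c6, and 82.4 and 55.5, then 25.4 and 17.1, in clone c8. Members of the list thus went both ways. Of 25 listed targets of MYC and MYCN, 0 rose and 1, RCC1, fell (-0.60), with a median of -0.12. EGR1 lost its call without time 4 of c8. RCC1 stayed called only without time 8 or 12 of c6, with an adjusted p of at most 0.134 where calls were lost (RCC1). The count of immediate early genes that rose was 3 without time 4 of c8 and 3 without time 12 of c8.

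Some matrix genes rose, and most did not pass the test. Of 20 measured genes in a list of collagens, 8 rose and 0 fell (median 0.51), against 2.63% and 0.980% of all genes. They were COL3A1, the 3 collagen VI chains COL6A1 (1.37), COL6A2 (0.92) and COL6A3, COL11A1 (1.59), COL18A1 (0.98), COL5A1 (0.84) and the basement membrane chain COL4A1 (0.83). The list does not cover the whole family: COL4A4 (1.99), COL4A3 (1.06) and COL6A6 (1.79), which are not on it, rose too, and the last pair are named after their values were seen. COL6A3 signals were 2.2 and 4.8 at times 4 and 8 and 30.8 and 83.2 at times 12 and 24 in clone c6, and 2.3 and 17.5, then 109.8 and 220.0, in clone c8. It was near the lower end of the scale on the 4 earlier arrays and above 30 on all later ones. COL6A1 signals were 201 and 244 at times 4 and 8 and 371 and 835 at times 12 and 24 in clone c6, and 256 and 275, then 728 and 787, in clone c8, again with no overlap. Its dimmer probe sets gave changes of 1.16, 0.90, 0.20, 0.39, -0.0005, 0.13 and -0.16. COL6A1 and COL3A1 lost their calls with the mean of all probe sets. Of 39 matrix glycoproteins and proteoglycans, 5 rose and 0 fell (median 0.30): fibronectin FN1 (1.73), tenascin TNC (2.09), the laminin chain LAMB2 (0.91), decorin DCN (0.83) and LOXL2, which crosslinks collagen (0.48). FN1 signals were 297 and 378 at times 4 and 8 and 472 and 1232 at times 12 and 24 in clone c6, and 247 and 297, then 1114 and 1788, in clone c8. Of its 7 probe sets, the 4 brightest gave changes of at least 1.68 and the 3 dim ones 0.99, 0.34 and 0.02. TNC signals were 29.7 and 51.4 at times 4 and 8 and 80.2 and 141 at times 12 and 24 in clone c6, and 58.8 and 61.4, then 459.7 and 791, in clone c8, and the later rise was larger in c8. FN1 lost its call without time 4 of c8, and LAMB2 lost its call without time 4 of c8 or time 24 of c6. COL4A4 lost its call without time 4 or 12 of c8 or time 24 of c6. LOXL2 stayed called only without time 12 of c6, with an adjusted p of at most 0.155 where calls were lost (LOXL2). The count of collagen genes that rose was 4 without time 4 of c6, 3 without time 4 of c8, 5 without time 8 of c8, 4 without time 24 of c6 and 5 without time 24 of c8, and that of glycoproteins was 3 without time 4 of c6, 1 without time 4 of c8, 3 without time 8 of c8, 11 without time 12 of c6, 3 without time 12 of c8, 2 without time 24 of c6 and 3 without time 24 of c8.

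Of 10 measured fibroblast markers, 5 rose (COL3A1, COL6A3, S100A4, DCN and THY1) and 0 fell, with a median of 0.81. Among all genes 2.63% rose and 0.980% fell. The 13 markers with a probe set summed to a signal of 1373 to 2334 on the earlier arrays and 1815 to 4535 on the later ones, with COL1A2, PDPN, FAP and DPT below 16 on all 8 and COL1A1, PDGFRA and FBLN1 at 100 or more on all 8. In these bulk samples a rise in every cell and a rise in the number of cells of another kind cannot be told apart. Of 23 mesenchymal markers, 9 rose and 1 fell (median 0.24). The 9 were THY1, S100A4, LGALS1, LGALS3, PLAT, IFITM1, IFITM2, IFITM3 and CDH11, while ANXA2 fell (-0.55). Of 18 mesenchymal transcription factors, SNAI2 (0.70) and CREG1 (0.97) rose and TWIST1 (-0.40) fell. SNAI2, a repressor known from neural crest migration, had 608 and 830.2 at times 4 and 8 and 1338 and 1386 at times 12 and 24 in clone c6, and 656 and 743, then 1081 and 873, in clone c8, with the later arrays above the earlier ones. PRRX1 was between 8.9 and 16.3 throughout (change -0.07 ± 0.15, SE, adjusted p = 0.85), and the intermediate filament VIM changed by 0.24 ± 0.08 (SE, adjusted p = 0.128). THY1 and IFITM3 lost their calls without time 4 of c8, and SNAI2 lost its call without time 4 or 12 of c8 or time 24 of c6. CREG1 lost its call without time 4, 8 or 24 of c8 or time 4 of c6, and IFITM2 lost its call without time 4, 8 or 12 of c8 or time 24 of c6. TWIST1 stayed called only in the fits without time 4, 12 or 24 of c6. S100A4 stayed called only without time 12 of c6, with an adjusted p of at most 0.124 where calls were lost (TWIST1). The count of mesenchymal markers that rose was 3 without time 4 of c8, 5 without time 8 of c8 and 5 without time 12 of c8, and that of fibroblast markers 3 without time 4 of c6, 1 without time 4 of c8, 3 without time 8 of c6, 3 without time 8 of c8, 3 without time 12 of c8, 3 without time 24 of c6 and 3 without time 24 of c8.

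Smooth muscle genes divided into some that moved in the transition and some that had hardly begun outside time 24 of c8. Of 23 measured contractile genes, 5 rose and 0 fell (median 0.41), against 2.63% and 0.980% of all genes: tropomyosin TPM1, the coactivator MRTFB (1.51), SYNPO2 (1.42), caldesmon CALD1 (1.08) and the kinase MYLK (0.85). TPM1 signals were 218 and 298 at times 4 and 8 and 494 and 1329.8 at times 12 and 24 in clone c6, and 406 and 491, then 1546 and 1803, in clone c8, which did not overlap between the groups (log2 change 1.74 ± 0.24, SE, adjusted p = 0.00337). SYNPO2 signals were 70.6 and 60 at times 4 and 8 and 154 and 412 at times 12 and 24 in clone c6, and 356 and 336, then 735 and 805, in clone c8. They rose within each clone from different starting levels. ACTA2, smooth muscle actin, had 26 and 60.7 at times 4 and 8 and 78.6 and 96.2 at times 12 and 24 in clone c6, and 86.5 and 73.7, then 128 and 1393, in clone c8, so 1 array, time 24 of c8, stood far above the rest, and its change of 1.55 ± 0.55 (SE, adjusted p = 0.142) did not pass. TAGLN had 13.9 and 7.0 at times 4 and 8 and 11.4 and 7.6 at times 12 and 24 in clone c6, and 7.1 and 2.1, then 23.2 and 194, in clone c8, with the same array high (change 1.05 ± 0.50, SE, adjusted p = 0.276). At times 48 and 72 ACTA2 reached 2094 and 4732 in c6 and 4343 and 5768 in c8. CNN1 changed by 0.89 ± 0.26 (SE, adjusted p = 0.0777), and smooth muscle myosin MYH11 by 0.14 ± 0.20 (SE, adjusted p = 0.761), with signals of at most 15.8 on the 8 arrays. CALD1 and MYLK lost their calls without time 4 of c8, with an adjusted p of at most 0.0524 in these fits (MYLK). The 23 contractile genes summed to a signal of 3789 to 5020 on the earlier arrays and 5273 to 13237 on the later ones, with MYH11 and LMOD1 below 16 on all 8, and whether smooth muscle-like cells grew in number was not tested. The count of contractile genes that rose was 2 without time 4 of c8.

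The CArG box, which serum response factor binds in many muscle genes, was found in 4 of 18 contractile gene windows (22.2%), those of ACTG2, CNN2, MYLK and SRF, and in 1.14% of all windows. Among genes that rose it was in 3.19% of windows, and among genes that fell in 0.935%. The window of MYLK is shown as the member that rose, with the box in capitals.
MYLK, chr3:123620519-123620798, minus strand: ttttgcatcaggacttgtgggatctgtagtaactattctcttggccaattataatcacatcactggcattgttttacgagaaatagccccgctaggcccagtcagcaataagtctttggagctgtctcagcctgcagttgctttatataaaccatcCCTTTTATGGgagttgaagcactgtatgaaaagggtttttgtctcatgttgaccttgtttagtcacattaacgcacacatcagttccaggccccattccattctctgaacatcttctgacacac

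Pericyte and PDGF genes also rose in part. Of 14 measured, 5 rose and 0 fell (median 0.57), against 2.63% and 0.980% of all genes. They were the ligand PDGFA (1.19), its receptor PDGFRB, NOTCH3, the adhesion molecule MCAM (1.65) and RGS5, a regulator of G protein signals known from pericytes. For NOTCH3 the signal does not tell the construct from the cells' own gene. PDGFRB signals were 6.1 and 16.4 at times 4 and 8 and 16.6 and 95.5 at times 12 and 24 in clone c6, and 26.5 and 31, then 180.3 and 146, in clone c8. In c6 only time 24 stood out (log2 change 1.58 ± 0.33, SE, adjusted p = 0.0215). RGS5 signals were 62.8 and 106 at times 4 and 8 and 188 and 326 at times 12 and 24 in clone c6, and 80.7 and 93.5, then 205 and 674, in clone c8, with the later arrays above the earlier ones and time 24 of c8 highest (log2 change 1.68 ± 0.31, SE, adjusted p = 0.0131). RGS5 has 6 probe sets, and 2 of them gave changes of 0.11 and 0.23. RGS5 lost its call without time 4 of c8, and NOTCH3 lost its call without time 4 of c8 or time 4 of c6. MCAM lost its call without time 4, 8 or 12 of c8 or time 24 of c6. PDGFRB stayed called only without time 8 or 12 of c6, with an adjusted p of at most 0.0948 where calls were lost (PDGFRB). The count of members that rose was 3 without time 4 of c6, 1 without time 4 of c8, 3 without time 8 of c8, 3 without time 12 of c8 and 3 without time 24 of c6.

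Genes of cell contact and migration were a further group. Of 46 axon guidance genes, 11 rose and 1 fell (median 0.37), against 2.63% and 0.980% of all genes. They included the semaphorins SEMA5B, SEMA5A (0.99) and SEMA6A (0.66), the receptors PLXNC1 (1.72), UNC5C (1.18) and DCC (0.98), the ephrin EFNB2, the ligand CXCL12 (0.87) and ACKR3, which scavenges it (1.28). The second probe set of CXCL12 gave 0.48, and dimmer ones of ACKR3 gave 0.45 and 0.16. With the mean of all probe sets neither gene was called. EFNB2 signals were 261 and 309 at times 4 and 8 and 589.8 and 820.0 at times 12 and 24 in clone c6, and 263 and 309, then 828 and 1007, in clone c8. Clones and times within each group were close, and the groups did not overlap (log2 change 1.44 ± 0.14, SE, adjusted p = 0.000652). The member that fell was EFNA5 (-0.48). Of 22 cadherins and protocadherins, 6 rose (FAT3, CDH11, PCDH18, PCDH9, CDH6 and PCDH17) and CDH7 fell (-0.70), with a median of 0.42. CDH11, known from mesenchymal cells, had 194 and 211 at times 4 and 8 and 430.2 and 892 at times 12 and 24 in clone c6, and 272 and 399, then 1011 and 891, in clone c8 (log2 change 1.51 ± 0.19, SE, adjusted p = 0.00292). Of 37 integrin and focal adhesion genes, 7 rose and 0 fell (median 0.18), led by the collagen-binding integrin ITGA1, with 164 and 96.9 at times 4 and 8 and 272 and 532 at times 12 and 24 in clone c6, and 207 and 203, then 829 and 1264, in clone c8. The later signals of ITGA1 were higher in c8. SEMA5B lost its call without time 4 of c8, and CXCL12 stayed called only in the fits without time 24 of c8 or time 8 or 12 of c6. The adjusted p was at most 0.0949 where these calls were lost (CXCL12). The counts of genes that rose were 6 without time 4 of c6, 5 without time 4 of c8, 7 without time 8 of c8, 18 without time 12 of c6, 6 without time 12 of c8 and 7 without time 24 of c6 for axon guidance, 10 without time 12 of c6 for cadherins and 3 without time 4 of c8 for integrins.

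Of 25 interferon-stimulated genes, 5 rose and 0 fell (median 0.29), against 2.63% and 0.980% of all genes. They were BST2 (1.97), the 3 IFITM genes IFITM1 (1.68), IFITM2 (1.84) and IFITM3 (1.42), and IFI44L (0.71). The IFITM genes are near-identical neighbours, whose probe sets may share signal. BST2, which tethers virus particles to the cell surface, had 1.3 and 1.4 at times 4 and 8 and 15.7 and 72.3 at times 12 and 24 in clone c6, and 1.7 and 10.5, then 172 and 47, in clone c8. In c8 its peak was at time 12 and in c6 at time 24. IFITM3 signals were 362 and 448 at times 4 and 8 and 546 and 1460.5 at times 12 and 24 in clone c6, and 426 and 489.5, then 1495 and 1599, in clone c8, without overlap. IFITM3 lost its call without time 4 of c8, and BST2 lost its call without time 4 of c8 or time 24 of c6. IFITM2 lost its call without time 4, 8 or 12 of c8 or time 24 of c6, with an adjusted p of at most 0.0728 in these fits (IFITM2). The count of members that rose was 1 without time 4 of c8, 3 without time 8 of c8, 3 without time 12 of c8 and 2 without time 24 of c6.

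**Figure D3:**
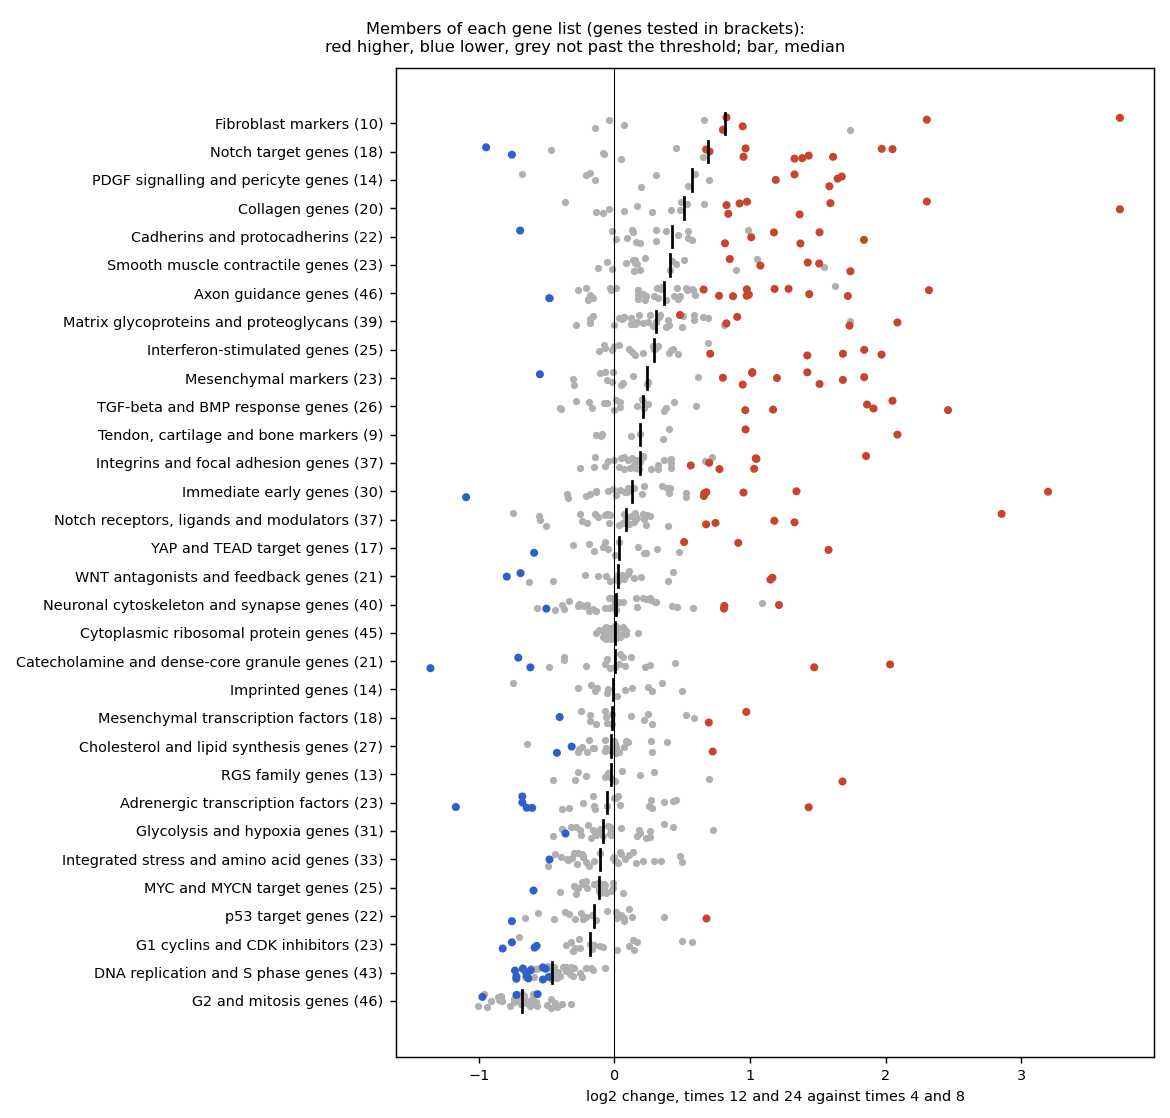
Log2 change in the transition (horizontal axis) of each measured member of the gene lists with at least 9 measured members (vertical axis, sorted by median), 1 point per gene, red for genes that rose, blue for genes that fell and grey for the rest, with a black bar at the median of the list. The medians of fibroblast markers and Notch targets lie furthest to the right, ribosomal protein genes lie close to 0, and all members of the DNA replication and mitosis lists lie left of 0.

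Adrenergic genes moved in part. Of 23 measured adrenergic transcription factors, 5 fell (INSM1, PHOX2A, DACH1, EYA1 and HAND1) and 1 rose, HEY1, which is also a Notch target (median -0.06), where 0.980% of all genes fell and 2.63% rose. PHOX2A, a homeobox factor of sympathetic neurons, had 1259 and 1577 at times 4 and 8 and 841 and 1019 at times 12 and 24 in clone c6, and 1458 and 1598, then 926 and 861, in clone c8. All 4 later arrays lay below the earlier ones (log2 change -0.68 ± 0.10, SE, adjusted p = 0.0055). The lineage factors GATA3 and HAND2 had changes of -0.06 ± 0.09 (SE, adjusted p = 0.797) and -0.14 ± 0.12 (SE, adjusted p = 0.548), with GATA3 between 3045 and 4290 on all 8 arrays. Of 21 catecholamine and dense-core granule genes, DBH, the noradrenaline transporter SLC6A2 (-0.71) and the neuropeptide galanin GAL (-0.62) fell, while the granule protein SCG2 and CADPS (1.47), which primes granules for release, rose (median 0.00). SCG2 signals were 101 and 112 at times 4 and 8 and 254 and 401 at times 12 and 24 in clone c6, and 29.6 and 44, then 234 and 394, in clone c8, higher on all later arrays (log2 change 2.03 ± 0.25, SE, adjusted p = 0.00271). Genes of the same granules thus went both ways. Of 40 neuronal cytoskeleton and synapse genes, MAPT (1.21), RAB3C (0.81) and STMN2 (0.81) rose and SYN2 (-0.50) fell (median 0.01), against 2.63% and 0.980% of all genes. STMN2 was dim, at 0.8 to 5.5 on the earlier arrays and 11.6 to 28.8 on the later ones. Its second probe set changed by 0.20. CADPS lost its call without time 4 of c8, and DBH lost its call without time 4 or 8 of c6. RAB3C lost its call without time 4 or 12 of c8 or time 24 of c6, and DACH1 lost its call without time 4, 8 or 12 of c8 or time 8 of c6. MAPT lost its call without time 4 or 12 of c8 or time 4 or 24 of c6, and GAL stayed called only in the fits without time 8 or 12 of c6. STMN2 stayed called only in the fits without time 12 of c8 or time 12 of c6. SYN2 stayed called only in the fits without time 24 of c8 or time 12 of c6. The adjusted p was at most 0.145 where these calls were lost (SYN2). The count of adrenergic factors that fell was 3 without time 4 of c8, 3 without time 8 of c6, 3 without time 8 of c8 and 3 without time 12 of c8. The count of catecholamine and granule genes that fell was 1 without time 4 of c6, 1 without time 4 of c8, 1 without time 8 of c6, 1 without time 8 of c8, 1 without time 12 of c8 and 1 without time 24 of c8, and that of neuronal genes that rose was 1 without time 4 of c6, 0 without time 4 of c8, 7 without time 12 of c6, 1 without time 12 of c8 and 0 without time 24 of c6.

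Genes of cell division dipped, on different arrays in the 2 clones. Of 43 DNA replication and S phase genes, 12 fell and 0 rose, with a median log2 change of -0.46 and all 43 below 0. Among all 13675 genes 0.980% fell, 2.63% rose and 7506 had a change above 0. Of 46 G2 and mitosis genes, 3 fell (NCAPH, NUSAP1 and MAD2L1) and 0 rose, although the median was -0.68 and all 46 lay below 0. The mean log2 level of the mitosis genes was 9.75 and 9.97 at times 4 and 8 and 9.85 and 8.58 at times 12 and 24 in c6, and 9.79 and 9.77, then 8.86 and 9.25, in c8. The lowest array was thus time 24 in c6 and time 12 in c8, and at time 12 clone c6 was still near its earlier level. By time 48 the level was 9.36 in c6 and 9.63 in c8. For the S phase genes the mean level was 9.40, 9.27, 8.86 and 8.55 in c6 and 9.26, 9.06, 8.68 and 9.06 in c8, with the same lowest arrays.

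Single arrays decided how many division genes were called. The 12 S phase genes that fell were the origin factor ORC1 (-0.73), thymidine kinase TK1 (-0.72), the helicase subunits MCM7 and MCM2 (-0.53), MCM10 (-0.65), the histone chaperone subunit CHAF1B (-0.68), the ligase LIG1 (-0.65), GINS1 (-0.64) and GINS3 (-0.53), the clamp loader RFC5 (-0.62), the ribonucleotide reductase subunit RRM1 (-0.51) and the flap nuclease FEN1 (-0.48). The count of mitosis genes that fell was 0 without time 4 of c6, 0 without time 4 of c8, 0 without time 8 of c6, 0 without time 8 of c8, 43 without time 12 of c6 and 0 without time 12 of c8, 29 in c8 alone, 42 without time 12 of both clones, 7 with median centring and 1 with quantile normalization. The count of S phase genes was 0 without time 4 of c6, 0 without time 4 of c8, 0 without time 8 of c6, 6 without time 8 of c8, 19 without time 12 of c6, 0 without time 12 of c8, 2 without time 24 of c6 and 20 without time 24 of c8. Leaving out the lowest array of each clone, a choice made after seeing the data, called 0 members of either list. MCM7, a subunit of the replicative helicase, had 1504 and 1524 at times 4 and 8 and 909 and 631 at times 12 and 24 in clone c6, and 1343 and 1342, then 871 and 1079.8, in clone c8, a log2 change of -0.72 ± 0.14 (SE, adjusted p = 0.016). The groups did not overlap, and the lowest signal was time 24 of c6. MAD2L1, a spindle checkpoint gene, had 1474 and 1667 at times 4 and 8 and 1044 and 943 at times 12 and 24 in clone c6, and 2375 and 1997, then 1255 and 1922, in clone c8, a log2 change of -0.57 ± 0.13 (SE, adjusted p = 0.0331), and recovered most of its level by time 24 in c8. MKI67, the proliferation marker, had 705 and 718 at times 4 and 8 and 693 and 199.6 at times 12 and 24 in clone c6, and 737 and 652, then 286 and 447, in clone c8 and a change of -0.91 ± 0.28 (SE, adjusted p = 0.0971). At time 12 MKI67 in c6 was still near its earlier level. Of 23 G1 cyclins and CDK inhibitors, 0 rose and 4 fell, against 2.63% and 0.980% of all genes. They were E2F7 (-0.82), the inhibitors CDKN1A (-0.76) and CDKN1B (-0.57), and CDK2 (-0.59). CDKN1A signals were 250.5 and 257 at times 4 and 8 and 173 and 109 at times 12 and 24 in clone c6, and 426 and 343, then 208 and 250.4, in clone c8. Both an S phase kinase and inhibitors of such kinases were thus lower. CCND1 changed by -0.08 ± 0.13 (SE, adjusted p = 0.779) and CDKN1C by 0.49 ± 0.29 (SE, adjusted p = 0.374). E2F7 and CDK2 stayed called only in the fits without time 8 or 24 of c8 or time 12 of c6, and CDKN1A lost its call without time 4 or 12 of c8. MCM7 lost its call without time 4 or 12 of c8 or time 4 or 8 of c6, and NCAPH stayed called only in the fits without time 24 of c8 or time 12 or 24 of c6. CDKN1B stayed called only in the fits without time 24 of c8 or time 4 or 12 of c6, and MAD2L1 stayed called only in the fits without time 24 of c8 or time 12 of c6. NUSAP1 stayed called only without time 12 of c6, with an adjusted p of at most 0.153 where calls were lost (NUSAP1).

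**Figure D4:**
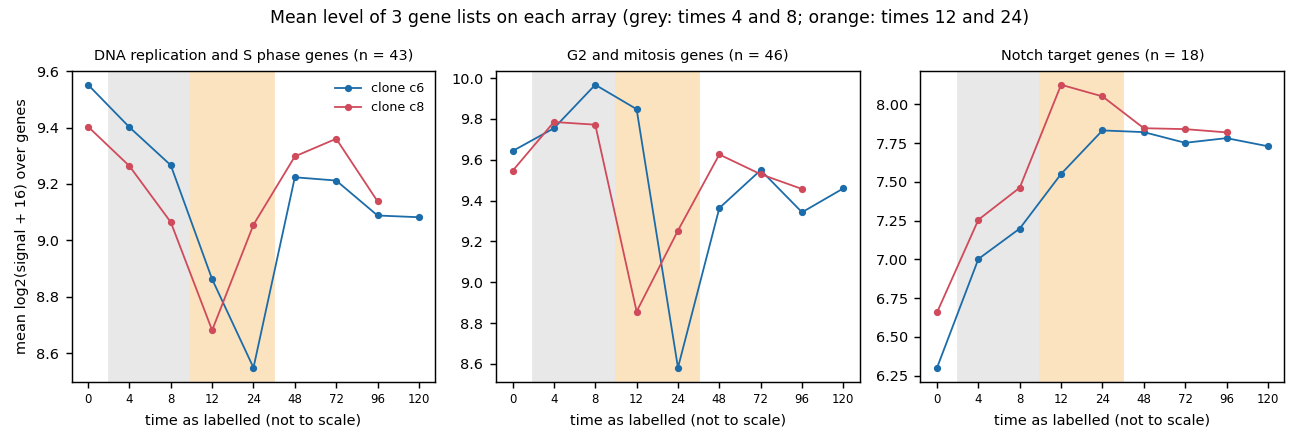
Mean log2(signal + 16) over the members of 3 gene lists (vertical axis) on each array against the labelled times (horizontal axis, not to scale), clone c6 in blue and c8 in red, times 4 and 8 grey and times 12 and 24 orange. The division genes are lowest at time 24 in c6 (8.58 for mitosis genes) and at time 12 in c8 (8.86), while Notch targets climb in both clones.

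Promoter windows of the division genes held motifs known from them. TTTCCCGC, a form of the E2F motif, was found in 11 of 38 S phase windows (28.9%) and in 2.52% of all windows. TTTGAA, the core of the cell cycle homology region, was found in 26 of 40 mitosis gene windows (65%) and in 9.98% of all. Among all genes that fell, 5.61% of windows held TTTCCCGC and 15.9% TTTGAA. MCM7 and MAD2L1 are shown as the members with a match that fell with the smallest p, with the match in capitals, on the reverse strand in MCM7.
MCM7, chr7:100101368-100101647, minus strand: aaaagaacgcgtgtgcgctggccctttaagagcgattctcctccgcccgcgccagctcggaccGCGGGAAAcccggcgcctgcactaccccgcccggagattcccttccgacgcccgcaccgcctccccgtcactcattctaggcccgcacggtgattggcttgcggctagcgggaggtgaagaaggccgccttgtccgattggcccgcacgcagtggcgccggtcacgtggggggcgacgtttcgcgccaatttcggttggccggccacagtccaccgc
MAD2L1, chr4:120066819-120067098, minus strand: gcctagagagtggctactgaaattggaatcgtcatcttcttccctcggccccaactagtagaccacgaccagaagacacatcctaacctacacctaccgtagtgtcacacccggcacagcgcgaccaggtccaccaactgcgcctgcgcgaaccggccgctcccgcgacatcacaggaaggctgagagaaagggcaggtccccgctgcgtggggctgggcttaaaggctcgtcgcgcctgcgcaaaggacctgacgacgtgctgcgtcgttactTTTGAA

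Further lists had few calls or calls in both directions, where 2.63% of all genes rose and 0.980% fell. None of 45 cytoplasmic ribosomal protein genes was called, with changes from -0.14 to 0.17. Of 33 integrated stress and amino acid genes only PSAT1 fell, of 31 glycolysis and hypoxia genes only ENO1 fell, and of 27 cholesterol and lipid genes EBP and ACLY fell and SC5D rose. Of 21 WNT antagonists and feedback genes, SFRP1 (1.16) and DKK1 (1.15), both secreted inhibitors, rose, and KREMEN1 (-0.79) and ZNRF3 (-0.69) fell. Of 17 YAP and TEAD targets, MYOF (1.58), ARHGEF17 (0.91) and DLC1 (0.51) rose and F3 (-0.59) fell. Of 22 p53 targets, TP53I3 (0.68) rose and CDKN1A fell. Of 14 imprinted genes none was called, and of 13 RGS genes only RGS5. ENO1, EBP, ACLY and TP53I3 stayed called only in the fits without time 12 of c6, and KREMEN1 lost its call without time 4 of c8. DLC1 lost its call without time 4 or 12 of c8, and F3 lost its call without time 4, 8 or 12 of c8. ZNRF3 lost its call without time 4 or 12 of c8 or time 4 or 24 of c6, and SC5D stayed called only in the fits without time 24 of c8 or time 4 or 12 of c6. PSAT1 stayed called only in the fits without time 24 of c8 or time 12 of c6. The adjusted p was at most 0.147 where these calls were lost (ACLY).

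Markers of further cell types were mostly dim. Of the endothelial markers 10 of 15, of the epithelial 8 of 14, of the blood and immune 9 of 13 and of the Schwann and glial 8 of 14 with a probe set were below 16 on all 8 arrays, and none of the 4 to 6 members tested in each list was called. VWF, CDH5, CDH1, PTPRC and SOX10, each a defining gene of its cell type, were among those below 16. The summed signal of the endothelial list was 94.1 to 138 on the earlier and 108 to 155 on the later arrays, that of the epithelial list 98.6 to 176 and 113 to 148, and that of the blood list 103 to 144 and 92.2 to 162. The Schwann and glial list summed to 219.7 to 290.2 on the earlier and 282 to 373 on the later arrays. Of that list MITF was between 100.3 and 146 on all 8 arrays, GAP43 was 15.6 to 40.1 and then 38.9 to 92.4, and NGFR, a receptor of neural crest cells, was 2.4 to 29.9 and then 23.2 to 85.5. Of the skeletal and cardiac muscle markers 7 of 15 were below 16 throughout and 0 of 5 tested were called, with sums of 204 to 442 and 198 to 398, and the muscle creatine kinase CKM was at 43.1 to 261. Of 9 tendon, cartilage and bone markers SOX9 and TNC rose, where 2.63% of all genes rose. RUNX2, SP7 and MKX stayed below 16. TNMD, the tendon gene tenomodulin, was at 0.6 to 2.2 on 7 of the 8 arrays and at 29.5 at time 24 of c8 (change 0.40 ± 0.28, SE, adjusted p = 0.476).

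The genes called in the transition were then read on arrays outside the transition fit. These arrays did enter the choice of probe set and the intensity filter, which used means over all 17 arrays. At times 48, 72 and 96, 325 of the 359 genes that rose (90.5%) were above their own clone's time 0 on all 6 arrays, against 16.9% of all genes tested. Of the 134 that fell, 80 (59.7%) were below time 0 on all 6, against 12.7% of all genes. Their median change against time 0 was 1.09 and -0.36. The 6 arrays share 2 time 0 arrays, and no test was made.

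**Figure D5:**
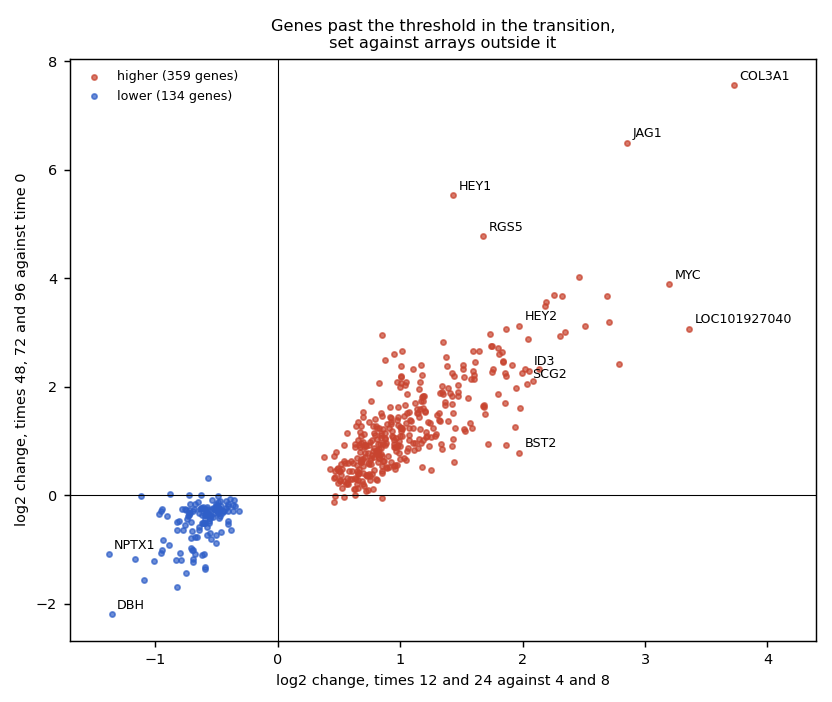
Each point is 1 of the 493 genes past the threshold, with its log2 change in the transition (horizontal axis) and the mean over both clones of its log2 change from time 0 to times 48, 72 and 96 (vertical axis), red for the 359 that rose and blue for the 134 that fell. Most red points lie above 0 on the vertical axis, with COL3A1 and JAG1 highest, and most blue points lie below it, with DBH lowest.

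Single steps rested on 2 arrays against 2 and gave few calls. From time 8 to time 12, in a limma fit of the whole course of 17 arrays that estimated every time and the clone, 7 genes rose (0.0512%) and 1 fell (0.00731%), with 1530 genes (11.2%) at an unadjusted p under 0.05. The genes that rose were LOC101927040 (2.54), JAG1 (2.11), GPER1 (1.94), ID3 (1.75 ± 0.19, SE, adjusted p = 0.00168), LIPG (1.35), RND3 (0.97) and TPBG (1.33), and the gene that fell was KREMEN1 (-1.04), a co-receptor of the WNT inhibitor DKK1. RND3 and TPBG lay outside the rule for named genes and are given to complete the 7. GPER1, a G protein-coupled estrogen receptor, had 1.9 and 5.5 at times 4 and 8 and 43.4 and 71.3 at times 12 and 24 in clone c6, and 3.7 and 12.3, then 134 and 43.5, in clone c8. It was near background before time 12, and in c8 it was lower again at time 24. The count was 0 without time 8 of c6, 1 without time 12 of c8, 4 without time 8 of c8 and 307 without time 12 of c6. From time 12 to time 24, limma called 0 genes (0.00%) in either direction, with 965 genes (7.06%) at an unadjusted p under 0.05 and a smallest adjusted p of 0.249. That count was 20 without time 24 of c6 and 222 without time 12 of c8.

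The change in the transition was set against that in the first response, from time 0 to times 4 and 8. The test was of the signed difference of the 2 changes, which share the arrays of times 4 and 8. A value above 0 therefore need not mean a larger move, since a gene that fell first and then came back also gives one. In 6 genes (0.0439%) the difference was above 0 and in 7 (0.0512%) below, with 1280 (9.36%) at an unadjusted p under 0.05. Below 0 were genes of the first response: HES1 (-4.02 ± 0.54, SE, adjusted p = 0.00889), HEY1 (-3.28 ± 0.43, SE, adjusted p = 0.00889), CXCR4 (-3.05 ± 0.42, SE, adjusted p = 0.00889), RGS4 (-2.37) and the CDK inhibitor CDKN1C (-2.09). The changes of HEY1 in the first response and the transition were 4.47 and 1.97 in c6 and 4.95 and 0.89 in c8. CDKN1C changed by 2.39 and 0.87 in c6 and 2.78 and 0.12 in c8. Both were thus mostly early. Above 0 were CHODL (2.59), the potassium channel KCNMA1 (2.53), CT75 (2.04), PCDH9 (1.77) and ID3 (1.60). ID3 changed by 0.38 and 2.01 in c6 and 0.51 and 2.09 in c8, so most of its move fell in the transition. CT75, PCDH9 and KCNMA1 had first been lower than at time 0, with a change for CT75 of -1.27 in c6 and -1.45 in c8. In the limma fit of the transition CT75 changed by 0.68 and did not pass (adjusted p = 0.108). KCNMA1 was dim, with 16.9 at time 0 and 4.1 and 5 at times 4 and 8 in c6. In c8 it had 15.2, then 1.9 and 14.6. The number of genes called was 1 without time 0 or time 8 of c6 or time 8 of c8, 3 without time 4 of c8, 6 without time 24 of c8, 7 without time 0 of c8, 23 without time 12 of c8 and 284 without time 12 of c6.

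The move that followed, from times 12 and 24 to times 48 and 72, was set against the transition in the same way, and here the arrays of times 12 and 24 are shared. In 118 genes (0.863%) the later change was more positive and in 204 (1.49%) more negative, with 2487 (18.2%) at an unadjusted p under 0.05. With median centring, which moved the median of all genes by 0.12, the split was 156 more positive and 87 more negative. More negative were genes that rose less or went down after the transition: LOC101927040 (-4.42 ± 0.50, SE, adjusted p = 0.00112), BST2 (-3.52), COL4A4 (-3.35), TMEM45A (-3.19) and MYC (-3.18). COL4A4 changed in the transition and after it by 2.60 and -1.22 in c6 and 1.39 and -1.50 in c8, so part of its rise was lost in both clones. MYC changed by 2.95 and 0.97 in c6 and 3.45 and -0.94 in c8. In c6 its signal was 397 at time 24, 534 at time 48 and 344 at time 72, and in c8 it was 340.2, 167 and 150.2, so by time 72 it was below its time 24 level in both clones. More positive were TNMD (2.62) and MYH11 (1.88), which climbed after the transition, and MYBL2 (1.87), ZNF488 (1.86) and RAD54L (1.82), which were lower in it and higher again after. MYBL2, a transcription factor of dividing cells, changed by -1.19 and 0.76 in c6 and -0.82 and 0.96 in c8. The number of genes called was 16 without time 24 of c6, 18 without time 12 of c8, 45 without time 8 of c6, 89 without time 72 of c8, 104 without time 4 of c6, 113 without time 48 of c8, 880 without time 24 of c8 and 1013 without time 12 of c6.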

How the data were processed

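RNA of clones c6 and c8 was measured on 17 Affymetrix arrays, 1 per clone and time. The authors deposited linear probe set intensities, made with MAS5 and GCOS per the submitters' processing notes, which give no version. By the deposited values, each array had been scaled to a 2% trimmed mean of 100.01. The deposited intensities were used with no further normalization, as log2(intensity + 16). The platform annotation named a single gene for 41097 of 54675 probe sets, several for 1801 and none for 11777. RefSeq (GRCh38.p14) held 41043 of these single symbols, and 0 needed an update. A gene was its probe set of highest mean over all 17 arrays. It was kept at or above the 40th percentile of all probe sets (4.68 on the log2 scale), which left 13675 of 19775 genes. Detection calls were not analysed here.

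Differences were tested with limma 3.58.1 (R 4.3.3), using lmFit and eBayes with an intensity trend, and Benjamini-Hochberg adjustment over all genes tested. The scripts were tested on simulated data. The transition fit used the 8 arrays with the clone as a block, which pairs arrays of 1 clone by the labels. The correlation of the clone differences between times was 0.25 to 0.47. Steps and differences of changes used all 17 arrays. Named genes were the 15 largest rises and falls with separated arrays in each clone, up to 4 members of smallest p per list, the 5 largest each way for steps and differences, the 3 of smallest p where a clone difference called none, and a fixed set of 37 genes. Other members called in a list are named to complete its count. The groups, the 37 gene lists and these genes were chosen with earlier results of these data known. Alternatives were other pseudocounts, normalizations, filters, probe set summaries, designs and left-out arrays.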

Additional observations from a re-analysis of the deposited data

Results flagged for a closer look

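In groups of 4 arrays (times 4 and 8, or times 12 and 24, of both clones), 130 groups of 65 named genes were searched for 1 array that stood apart from the other 3 by a gap, as a share of the range, above Dixon's 95% critical value. In 9 groups there was one, where chance gives about 1 in 20. ACTA2 had a signal of 1393 at time 24 of c8, above the 78.6 to 128 of the other 3 arrays of times 12 and 24. CCND1 had a signal of 785 at time 8 of c6, below the 1040.4 to 1065 of the other 3 arrays of times 4 and 8. DBH had a signal of 23.4 at time 24 of c6, below the 63.3 to 69.3 of the other 3 arrays of times 12 and 24. HES5 had a signal of 16.6 at time 24 of c8, below the 36.9 to 42.1 of the other 3 arrays of times 12 and 24. ID2 had a signal of 1528 at time 8 of c6, above the 1329 to 1354 of the other 3 arrays of times 4 and 8. KIF22 had a signal of 729.9 at time 8 of c6, above the 455 to 491 of the other 3 arrays of times 4 and 8. MYH11 had a signal of 10.5 at time 4 of c6, above the 4.1 to 5.0 of the other 3 arrays of times 4 and 8. TMEM100 had a signal of 101 at time 12 of c6, below the 516 to 622 of the other 3 arrays of times 12 and 24. TNMD had a signal of 29.5 at time 24 of c8, above the 0.7 to 2.2 of the other 3 arrays of times 12 and 24. Of these, time 24 of c8 was the array that stood apart in ACTA2, HES5 and TNMD and time 8 of c6 in CCND1, ID2 and KIF22. In DBH and TMEM100 the difference lay between times 12 and 24 of c6. The causes were not tested.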

How the results depend on the processing

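The count of 493 genes in the transition was 454 and 485 with pseudocounts of 1 and 64, 399 after quantile normalization, 519 after median centring, 492 with the filter at the 60th percentile and 559 with a term for each time, all within 1.5 times. It was 244 without the filter, 278 with the mean of all probe sets, 282 without the intensity trend, 147 with no replicate block, 1047 in a fit over all 17 arrays and 0 in clone c6 alone, and ranged from 137 to 1356 when 1 array was left out. Added after seeing the data, it was 899 without time 12 of both clones and 83 without time 24 of c6 and time 12 of c8. The cause of these differences was not tested. Named genes lost with the mean of all probe sets included COL3A1, COL6A1, DBH, CXCL12, ACKR3, GAL, CDK2, CDKN1B, E2F7, EBP and ENO1.

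The clone difference stayed at 0 genes under every alternative except leaving out 1 array, which gave 0 to 1. The step from time 8 to 12 called 8 genes, and 3 with a pseudocount of 1, after quantile normalization or after median centring, 2 without the filter, 4 with the mean of all probe sets, 1 without the trend or with no replicate block, and 0 to 307 with 1 array left out. The step from time 12 to 24 called 0 to 222 with 1 array left out. The difference between transition and first response called 13 genes, and 6 after quantile normalization or median centring, 1 without the filter, 4 with the mean of all probe sets, 0 without the trend or with no replicate block, and 1 to 284 with 1 array left out. The difference between the following move and the transition called 322 genes, and 54 without the filter, 117 with the mean of all probe sets, 23 without the trend, 6 with no replicate block, and 16 to 1013 with 1 array left out. Median centring moved the median of all genes by -0.12 in the step from 8 to 12 and by 0.12 in the last comparison, where 156 of 243 genes were then higher (64.2%) against 118 of 322 (36.6%) with the deposited scaling. The share of higher calls in the transition was 88.4% with no replicate block and 88.3% without the trend. No named gene that was called in either fit changed its sign under an alternative.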
